A study of Mus musculus with 4 samples.

Results

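Rab GTPases are the largest branch of the Ras superfamily and act as switches of vesicle traffic. Bound to GTP on a particular membrane, each recruits effectors that move, tether or fuse vesicles, and guanine nucleotide exchange factors and GTPase-activating proteins turn it on and off. In dendritic cells they route phagosomes, Toll-like receptors, antigen and secretory cargo. The genes described here are all those whose symbol is Rab, a number and at most a letter and a digit, taken from the probes that are not controls. The gene table held 59 such symbols, of which 57 had a probe and 51, out of 23451 genes with a value in all, were well above background on at least 1 array. The other 6 (Rab4a, Rab23, Rab25, Rab26, Rab39b and Rab40b) were not well above background on any array, and no probe was matched to Rab36 or Rab44.

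The study asked how LA, written in the labels as L-(+)-LA, alters the response of dendritic cells to LPS, the bacterial ligand of the receptor Tlr4. Its 4 groups were LPS with LA, LPS, LA and medium, each with 1 single-colour array, and all came from wild-type male C57BL/6J mice. Femur marrow was grown with 10 ng/ml GM-CSF in MEM holding 10% FBS, and cells were collected on day 6. LPS was given at 100 ng/ml and LA at 20 mM, alone or together, for 4 h. The labels give no age of the mice, no time for medium, no pH for LA and no number of animals behind a culture. With 1 array per group there is no replicate check, so every difference is one between 2 arrays, no p-value is given, and precision is limited by there being 4 arrays.

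A level below is log2 of the processed signal of a gene's brightest probe after division by its own array's 75th percentile. Levels of different probes are not comparable with each other, and differences are in log2 units, where 1 unit is 2-fold. Well above background were 63.65%, 56.51%, 64.09% and 61.52% of the spots with LPS and LA, with LPS, with LA and in medium, so the LPS array had the fewest. Probes printed 10 times had a median SD between spots of 0.0502 to 0.0527 log2 units, or of 0.397 to 0.499 where dim. The software gave the signal of most Rab probes an error of about 10%. All 4 arrays lay on 1 slide with 1 scan, and the position on the slide cannot be told apart from the group. All 12 dendritic cell markers, among them Itgax, Cd74 and H2-Ab1, were well above background on every array, as were all 9 neutrophil and precursor markers.

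Among the Rab genes measured on all 4 arrays, LPS alone stood out as the array with the highest level. The LPS array held the highest level for 23 of 44 Rab genes (52.3%), against 34.7% of all 13368 genes measured on all 4 arrays, and the lowest level for 14 (31.8%), against 37.5% of all genes. Of the 44 Rab genes, 25 (56.8%) stayed within 2-fold over the 4 arrays, against 67.4% of all genes. The plot of levels by compartment shows the remaining 19, led by Rab7b with a range of 4.62, Rab40c with 2.76 and Rab33a with 2.60. In these bulk samples, fewer cells of a type and less RNA per cell cannot be told apart.

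**Figure D1:**
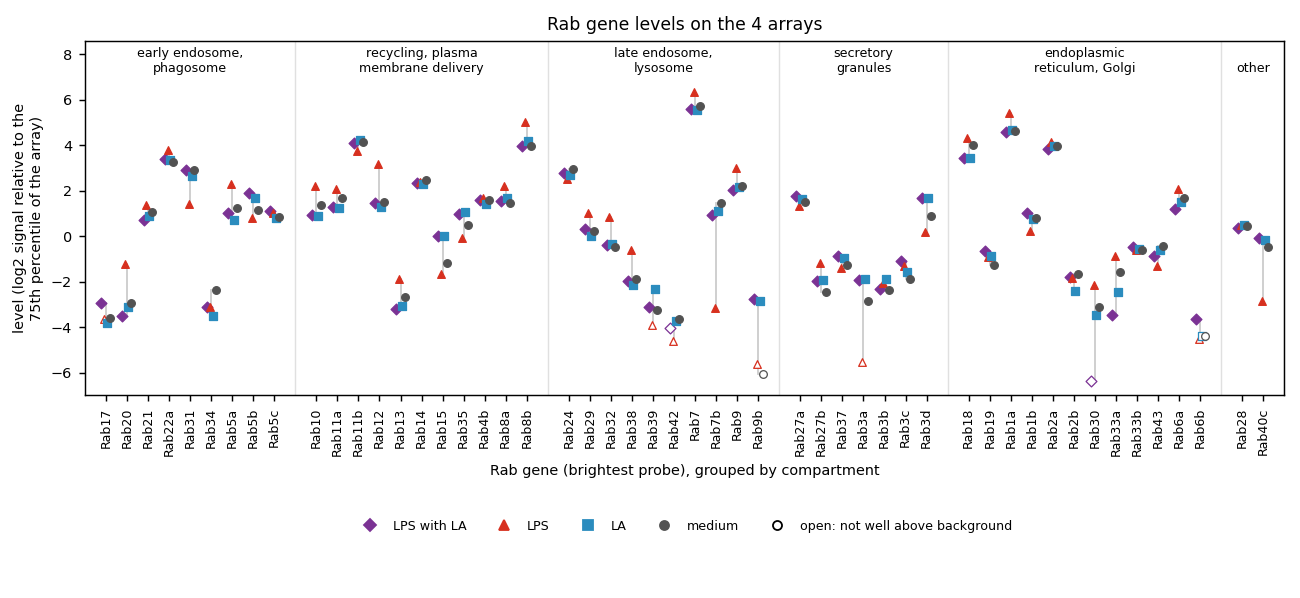
Level (log2 of the signal over its array's 75th percentile) of the 51 Rab genes on the arrays for LPS with LA (diamonds), LPS (triangles), LA (squares) and medium (circles), grouped by compartment, with open symbols where the probe was not well above background. Levels compare arrays within a gene and not genes with each other. The LPS triangle is the highest symbol for 23 of the 44 genes measured on all arrays, and Rab7b has the widest range among these, 4.62.

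With LPS alone against medium, 7 Rab genes were at least 2-fold higher and 3 at least 2-fold lower out of 45 measured on both arrays. Over all 13592 genes measured there, 8.14% were at least 2-fold higher and 7.50% at least 2-fold lower, 15.6% either way, against 22.2% of the Rab genes. The higher ones were Rab20, Rab12, Rab38, Rab32, Rab27b, Rab8b and Rab5a, and the lower ones Rab7b, Rab40c and Rab31. The median Rab difference was 0.32 (28 of 45 above 0), against 0.0034 over all genes. That distance of 0.32 between the medians was 0.23 to 0.32 under the other scalings and background correction, and 0.021 when probes at background were kept. The split was 5 higher and 4 lower with the authors' deposited table or with a 75th percentile taken from probes detected on every array, which move the median of all genes to -0.24 and -0.17. Over all genes 5.54% were higher and 12.8% lower in the authors' table, and 6.39% and 11.1% with that percentile. Under normexp background correction 2 Rab genes of 45 were higher and 3 lower, beside 5.02% and 2.34% of all genes. Spots above background were fewest on the LPS array. Markers of mast cells, basophils and eosinophils had a median of 0.63 for LPS against medium and a summed signal of 84.3 against 53.3. For dendritic cells these were 0.20 and 359.5 against 333.4, and for macrophages and monocytes 0.21 and 161 against 123.9. For neutrophils and precursors they were -0.064 and 678.5 against 589.9. The parts of detection and of cell composition in the counts were not tested.

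Among Rabs of early endosomes and phagosomes, Rab20 and Rab5a were higher with LPS. Rab20, which takes part in phagosome maturation, had levels of -3.53 with LPS and LA, -1.21 with LPS, -3.09 with LA and -2.94 in medium. The LPS array thus stood alone, 1.74 above medium, while the other 3 arrays lay close together. Rab5a, which drives fusion of early endosomes, was at 1.01 with LPS and LA, 2.30 with LPS, 0.69 with LA and 1.24 in medium, a difference of 1.06 between LPS and medium. Rab31, which carries cargo from the trans-Golgi network to endosomes, had the opposite pattern. Its levels were 2.91 with LPS and LA, 1.42 with LPS, 2.65 with LA and 2.89 in medium, 1.47 units lower with LPS than in medium.

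The LPS-higher Rabs of other compartments serve delivery to the cell surface, lysosome-related organelles and granules. Rab12, which sends the transferrin receptor from recycling endosomes to lysosomes, was at 1.45 with LPS and LA, 3.17 with LPS, 1.30 with LA and 1.50 in medium. Rab8b, of the pair that delivers Golgi and recycling cargo to the plasma membrane, was at 3.96 with LPS and LA, 5.04 with LPS, 4.20 with LA and 3.97 in medium. Rab32 and Rab38 direct cargo to melanosomes and related organelles, and both had the same shape. Rab32 was at -0.41 with LPS and LA, 0.84 with LPS, -0.35 with LA and -0.46 in medium, and Rab38 at -1.98 with LPS and LA, -0.59 with LPS, -2.17 with LA and -1.90 in medium. Differences between LPS and medium were 1.67 for Rab12, 1.31 for Rab38, 1.30 for Rab32 and 1.07 for Rab8b. Rab27b, which docks secretory granules, had -1.96 with LPS and LA, -1.18 with LPS, -1.94 with LA and -2.44 in medium, 1.26 higher with LPS, but its other probe was 0.33 lower with LPS than in medium. Other settings brought some of these differences under 2-fold: Rab8b to 0.73 to 0.98 under 4 settings, Rab5a to 0.83 to 0.97 under 4, Rab27b to 0.46 to 0.68 under 2, Rab20 to 0.69 and Rab38 to 0.78 under 1 each.

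Rab7b and Rab40c had the most negative LPS differences among the Rab genes measured on both arrays. Rab3a read 2.67 lower with LPS but was not well above background there, and so was at least 1.54-fold lower. Rab7b, which acts between late endosomes and the trans-Golgi network and in mouse macrophages promotes the degradation of Tlr4, was at 0.95 with LPS and LA, -3.15 with LPS, 1.13 with LA and 1.47 in medium. LPS lay 4.62 below medium, while both arrays with LA lay within 0.52 of it. That difference was -2.90 under normexp background correction and -3.23 with the mean of its probes. Rab40c, whose SOCS box couples it to a ubiquitin ligase, was at -0.096 with LPS and LA, -2.86 with LPS, -0.15 with LA and -0.47 in medium, 2.39 lower with LPS, which became -1.24 under normexp and -1.75 with the mean of its probes. The second probe of each of these genes ran the same way and was not well above background on the LPS array. For Rab7b it read -3.08 with LPS and LA, -2.40 with LA and -2.13 in medium, and for Rab40c -1.79 with LPS and LA, -2.49 with LA and -2.64 in medium. Over the 19 Rab genes with several measured probes, the probes of 14 all had 1 direction for LPS against medium. Among the 3 of these genes at least 2-fold apart, it was so for 2. Such counts were not taken over all genes. The median SD between probes of a gene was 0.175, against 0.229 over all genes.

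**Figure D2:**
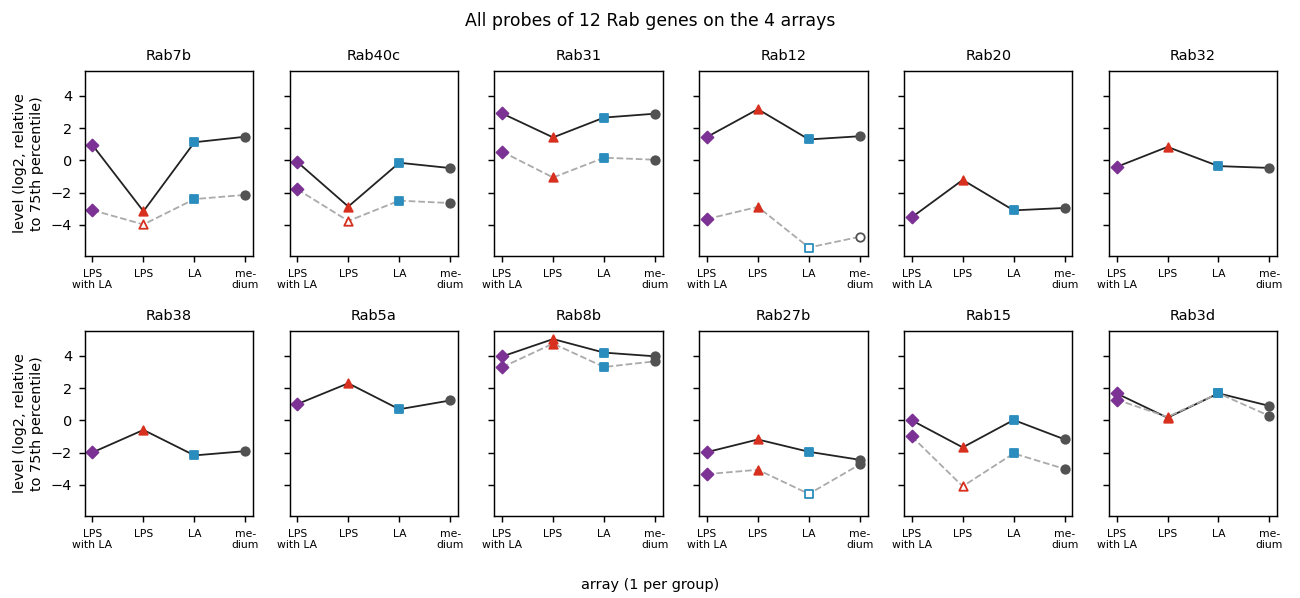
Level (log2 of the signal over its array's 75th percentile) of all probes of 12 Rab genes on the arrays for LPS with LA, LPS, LA and medium, with the brightest probe as a solid line, other probes dashed, and open symbols where not well above background. Lines only join the readings of 1 probe. Both probes of Rab7b, Rab40c and Rab31 dip on the LPS array, and the 2 probes of Rab27b differ, with LPS minus medium at 1.26 and -0.33.

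Paralogs of 1 subfamily differed in sign with LPS. Rab5a was 1.06 higher than in medium, Rab5b was 0.32 lower (0.026 lower by its other probe) and Rab5c 0.14 higher. The median of all genes was -0.17 with a 75th percentile from probes detected on every array and -0.24 with the authors' table. The sign of a difference as small as that of Rab5c thus depends on the scaling. Rab7, the Rab of late endosomes that drives their fusion with lysosomes, was at 5.60 with LPS and LA, 6.33 with LPS, 5.56 with LA and 5.74 in medium, 0.59 higher with LPS where Rab7b was 4.62 lower. Rab1a, which acts between the endoplasmic reticulum and the Golgi, was at 4.58 with LPS and LA, 5.44 with LPS, 4.66 with LA and 4.64 in medium, 0.80 higher with LPS, whereas Rab1b was 0.54 lower. Rab11a of the recycling endosome was at 1.31 with LPS and LA, 2.08 with LPS, 1.22 with LA and 1.67 in medium, 0.42 higher, and Rab11b was 0.37 lower. In other pairs the sign was shared: Rab8a and Rab8b were 0.74 and 1.07 higher, and Rab32 and Rab38 both stood above medium. Rab27a, which docks secretory lysosomes, was at 1.75 with LPS and LA, 1.33 with LPS, 1.66 with LA and 1.52 in medium, 0.20 lower with LPS, while the brighter probe of Rab27b was 1.26 higher. These subfamilies were singled out after their values were seen, and cross-hybridisation between paralogs was not tested.

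By compartment, the 7 measured Rabs of late endosomes and lysosomes had a median LPS difference of 0.78, the 11 of recycling and surface delivery 0.42, the 11 of the endoplasmic reticulum and Golgi 0.33, the 8 of early endosomes and phagosomes 0.22, and the 6 of secretory granules 0.098. Outside these stood Rab40c and Rab28, which was 0.044 above medium. By their brightest probes and in the scaling used here, all 11 measured Rabs of the endoplasmic reticulum and Golgi stayed within 2-fold between LPS and medium. They ran from -0.88 for Rab43, which supports cross-presentation in mouse dendritic cells, to 0.96 for Rab30. Rab30 passed 2-fold with median scaling. Rab43 did so with a 75th percentile taken from probes detected on every array, with the authors' table and with the mean of its probes. The other probe of Rab43, well above background on both arrays, was at -1.14. Each class spanned 0, so the medians are descriptions of few genes.

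RefSeq promoter windows on GRCm38.p6 were matched for 44 of the 51 genes (55 windows, each 250 bases before and 50 after a start). No entry was matched for Rab2a, Rab7b, Rab18, Rab27b, Rab30, Rab37 and Rab38. The median GC content was 61.3% in the Rab windows and 52.7% in all 32851 windows, with a median of 20 CpG dinucleotides against 7. CACGTG, the E-box that Tfeb and Myc family factors can bind, stood in 5 Rab windows (9.09%), against 7.15% of all windows. The kappaB consensus was present in 3 (5.45%) against 8.46%, the interferon-response letters GAAA, any 2 bases and GAAA in 1 (1.82%) against 3.44% and TGACGTCA in 1 (1.82%) against 1.79%, each searched on both strands, with matches of different motifs free to overlap. A match describes letters and not a bound site.

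The 250 bases before the start are printed for Rab20 and Rab5a, the LPS-higher genes with CACGTG, for Rab12, an LPS-higher gene with none of the motifs, and for Rab40c, an LPS-lower gene. Capitals mark CACGTG in Rab20 (46 to 41 bases before the start), and in Rab5a CACGTG (235 to 230 and 95 to 90 bases before) and TGACGTCA (28 to 21 bases before). The places are chr8:11478641-11478890 on the minus strand for Rab20, chr17:53478984-53479233 on the plus strand for Rab5a, chr17:66519671-66519920 on the minus strand for Rab12 and chr17:25919715-25919964 on the minus strand for Rab40c.
Rab20: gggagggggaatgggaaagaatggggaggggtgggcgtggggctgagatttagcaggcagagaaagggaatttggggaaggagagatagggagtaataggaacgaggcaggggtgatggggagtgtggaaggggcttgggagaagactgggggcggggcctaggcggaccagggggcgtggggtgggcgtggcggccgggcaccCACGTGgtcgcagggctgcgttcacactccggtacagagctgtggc
Rab5a: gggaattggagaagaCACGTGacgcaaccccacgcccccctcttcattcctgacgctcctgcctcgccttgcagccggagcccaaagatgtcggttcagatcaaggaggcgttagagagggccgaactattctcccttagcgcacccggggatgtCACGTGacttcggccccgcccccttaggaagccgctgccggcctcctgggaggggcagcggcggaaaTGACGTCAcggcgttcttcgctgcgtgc
Rab12: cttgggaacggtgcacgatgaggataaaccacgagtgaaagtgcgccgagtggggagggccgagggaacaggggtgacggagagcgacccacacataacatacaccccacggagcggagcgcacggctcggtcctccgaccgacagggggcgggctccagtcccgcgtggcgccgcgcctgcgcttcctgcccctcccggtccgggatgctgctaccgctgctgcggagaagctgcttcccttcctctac
Rab40c: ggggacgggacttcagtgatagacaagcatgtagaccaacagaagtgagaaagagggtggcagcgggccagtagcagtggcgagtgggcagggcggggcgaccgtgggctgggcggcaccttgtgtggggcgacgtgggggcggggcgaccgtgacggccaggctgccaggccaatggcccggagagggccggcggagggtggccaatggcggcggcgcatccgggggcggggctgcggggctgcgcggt
Among the windows of the 5 matched LPS-higher genes, CACGTG was in 2 and the kappaB consensus in 0, and the 2 windows of LPS-lower genes (Rab31 and Rab40c) held none of the 4 motifs.

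With LPS and LA against LPS, 7 Rab genes were at least 2-fold higher and 9 at least 2-fold lower out of 44, 36.4% either way. Over all 13631 genes 11.5% were at least 2-fold higher and 12.5% at least 2-fold lower, 24.0% either way. The median Rab difference was -0.21, against 0.0034 over all genes, and it became 0.052 where the 75th percentile came only from probes detected on every array and 0.21 with the authors' deposited table, which move the median of all genes to 0.27 and 0.43. Relative to the median of all genes it was -0.13 (normexp) to -0.23 under the other scalings and background correction, and 0.074 with probes at background kept. The split was 5 higher and 11 lower under median scaling, 8 and 7 with that stricter percentile, 8 and 3 with the authors' deposited table, and 5 and 4 under normexp background correction. Over all genes the higher and lower shares were 9.27% and 14.2% under median scaling, 17.8% and 8.69% with the stricter percentile, 22.7% and 6.91% in the authors' deposited table, and 4.65% and 8.09% under normexp.

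This comparison shares the LPS array with that of LPS against medium, so the 2 sets of values are not independent. Higher with LPS and LA than with LPS were Rab7b by 4.10, Rab40c by 2.76, Rab15 by 1.68, Rab3d by 1.51, Rab31 by 1.49, Rab5b by 1.10 and Rab35 by 1.04. Lower were Rab33a at -2.60, Rab20 at -2.32, Rab12 at -1.72, Rab38 at -1.39, Rab13 at -1.34, Rab5a and Rab10 at -1.29 each, Rab32 at -1.24 and Rab8b at -1.08. Under normexp background correction Rab7b was 2.39 and Rab40c 1.55 higher. Under other settings the differences of Rab5b (0.40 to 0.99), Rab35 (0.82 to 0.93), Rab13 (-0.98 to -0.33), Rab32 (-0.99 to -0.82), Rab8b (-0.81 to -0.53) and Rab38 (-0.97 to -0.68) were under 2-fold in 2 or 3 settings each, and those of Rab20, Rab33a, Rab5a and Rab10 in 1.

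Several of these genes had not reached 2-fold between LPS and medium. Rab33a, a Golgi Rab, was at -3.46 with LPS and LA, -0.85 with LPS, -2.45 with LA and -1.57 in medium, so LPS was the highest array and LPS with LA the lowest. Rab10, which in macrophages brings Tlr4 to the cell surface, was at 0.94 with LPS and LA, 2.23 with LPS, 0.88 with LA and 1.38 in medium. Rab13, a Rab of junction-protein recycling in epithelia, was at -3.20 with LPS and LA, -1.86 with LPS, -3.06 with LA and -2.70 in medium. In both genes the 2 arrays with LA lay below medium and the LPS array above it. Rab35, of a fast recycling route, was at 0.96 with LPS and LA, -0.080 with LPS, 1.05 with LA and 0.49 in medium. Rab5b read 1.92 with LPS and LA, 0.82 with LPS, 1.70 with LA and 1.14 in medium, where both arrays with LA were highest, but its other probe was 0.31 lower with LPS and LA than with LPS.

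Rab30 and Rab3a passed 2-fold by a bound, since 1 of the 2 arrays was not well above background. The bound sets the dim value to the weakest detected signal of that array, or to the probe's own signal if that is higher. Rab30 of the Golgi was at -6.37 and not well above background with LPS and LA, at -2.15 with LPS, -3.45 with LA and -3.10 in medium, and so was at least 3.77-fold lower with LPS and LA than with LPS. Rab3a of synaptic and other secretory vesicles was at -1.90 with LPS and LA, -5.54 with LPS where it was not well above background, -1.86 with LA and -2.87 in medium. That is at least 3.01-fold higher with LPS and LA than with LPS. On the LPS array 2 of the 10 spots of Rab3a were left out as outliers, at -2.48 and -0.74, both above the other 8.

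Markers of the cultured cells moved in the same comparison. Dendritic cell markers had a median of -0.92 for LPS with LA against LPS, where 1 of 12 stood at least 2-fold above and 6 at least 2-fold below, with a summed signal of 266.6 with LPS and LA against 359.5 with LPS, in units of the 75th percentile. Neutrophil and precursor markers had a median of 1.06, where 5 of 9 stood at least 2-fold above and 0 below, with a summed signal of 765 against 678.5. For macrophages and monocytes the median was -0.77 over 8 measured markers and the sum 100.3 against 161. For mast cells, basophils and eosinophils the median was 0.31 and the sum 108 against 84.3. The summed signal of B, T and NK cell markers was 4.13 against 4.04, that of erythroid and megakaryocyte markers 4.55 against 19.6, and that of stromal and endothelial markers 2.38 against 1.95. The part of cell composition in the Rab differences was not tested.

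With LA alone against medium, 2 of 49 measured Rab genes were at least 2-fold higher and 1 at least 2-fold lower, 6.12% either way. Over all 14554 genes 3.12% were higher and 3.33% lower, 6.44% either way, so the family's share was near that of all genes. The Rab median was -0.060, against 0.022 over all genes. Rab15, of early and recycling endosomes, was at 0.0059 with LPS and LA, -1.67 with LPS, 0.027 with LA and -1.17 in medium, and LA lay 1.20 above medium. Its second probe was 0.96 higher with LA than in medium, and under normexp background correction the brightest probe was 0.79 higher. Rab3a was 1.01 higher with LA, but its other probe, above background only in medium, read lower with LA, and the mean of its probes was 0.18 lower with LA than in medium.

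Rab34, found on macropinosomes and involved in lysosome positioning, was the lower one, at -3.13 with LPS and LA, -3.13 with LPS, -3.51 with LA and -2.39 in medium, a difference of -1.12 between LA and medium that shrank to -0.97 and -0.16 under 2 other settings. Medium was thus the highest array for Rab34 and the 3 treated arrays lay below it. Rab33a was next lowest, 0.88 below medium. Rab9b, the paralog of Rab9, which returns receptors from late endosomes to the trans-Golgi network, was at -2.74 with LPS and LA, -5.64 with LPS, -2.87 with LA and -6.07 in medium. It was well above background only on the 2 arrays with LA, and so was at least 2.06-fold higher with LA than in medium.

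By their brightest probes, all 7 measured Rabs of secretory granules and regulated exocytosis were above medium with LA, from 0.13 for Rab27a to 1.01 for Rab3a, with a median of 0.48, beside 52.3% of all genes above 0. The other probes of Rab27b and Rab3a, not well above background with LA, read lower there than in medium, at -1.83 and -1.37. By brightest probes, 7 of 9 Rabs of early endosomes and phagosomes were below medium. So were 7 of 9 of late endosomes and lysosomes, 8 of 11 of the endoplasmic reticulum and Golgi, and 6 of 11 of recycling and surface delivery. Small differences depend on the scaling, since the authors' table moves the Rab median to 0.097 and that of all genes to 0.17. Rab3d, a granule Rab of mast and exocrine cells, was at 1.68 with LPS and LA, 0.17 with LPS, 1.68 with LA and 0.90 in medium, and both probes of it were higher with LA than in medium, by 0.78 and 1.40. Rab37, a Rab of mast cell granules, was 0.32 above medium with LA, Rab3b 0.48, Rab3c 0.31 and Rab27b 0.50, none of them 2-fold. Granulocyte markers were also higher on this array. For mast cells, basophils and eosinophils the median of LA against medium was 0.75, with 3 of 8 measured markers at least 2-fold higher and a summed signal of 102 against 53.3, and for neutrophils and precursors 0.62, with a sum of 747 against 589.9. Dendritic cell markers had a median of -0.62 (0 of 12 at least 2-fold higher, 2 lower) and those of macrophages and monocytes -0.49 (1 of 9 higher, 2 lower). The part of cell composition in the levels of the granule Rabs was not tested.

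With LPS on top of LA (LPS with LA against LA), 0 Rab genes were at least 2-fold higher and 1 at least 2-fold lower out of 48. Over all 14903 genes, 0.906% were higher and 1.50% lower, 2.40% either way, against 2.08% of the Rab genes. The Rab median was 0.047, against -0.019 over all genes. Rab33a was the lower one, by 1.01, whereas it was 0.71 higher with LPS alone than in medium, and under 5 other settings its difference from LA was smaller than 2-fold, from -0.996 to -0.23. The widest of the others were Rab17, an epithelial transcytosis Rab, and Rab2b of the Golgi at the high end, and Rab39 of late endosomes and phagosomes at the low end. Rab17 was at -2.95 with LPS and LA, -3.65 and not well above background with LPS, -3.83 with LA and -3.60 in medium, 0.88 above LA. Rab2b was at -1.78 with LPS and LA, -1.83 with LPS, -2.42 with LA and -1.68 in medium, 0.64 above LA, though its other probe was 0.40 below. Rab39 was at -3.10 with LPS and LA, -3.89 and not well above background with LPS, -2.31 with LA and -3.26 in medium, 0.79 below LA.

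The LPS difference with LA and the LPS difference without it rest on 4 different arrays. Of the 10 Rab genes at least 2-fold apart between LPS and medium, 0 reached 2-fold with the same sign between LPS with LA and LA, and 4 had the same sign. All 10 differences were smaller with LA. The median size of the difference over the 44 genes was 0.14 with LA and 0.58 without, and Pearson's r between the 2 sets was -0.075 (Spearman's rho -0.13). The pattern was shared by the genome at large: of 2055 genes at least 2-fold apart, 33 remained so in the same direction with LA, 2033 were smaller, and r was 0.018 over 13368 genes. Genes are not independent replicates, and these correlations are descriptions.

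**Figure D3:**
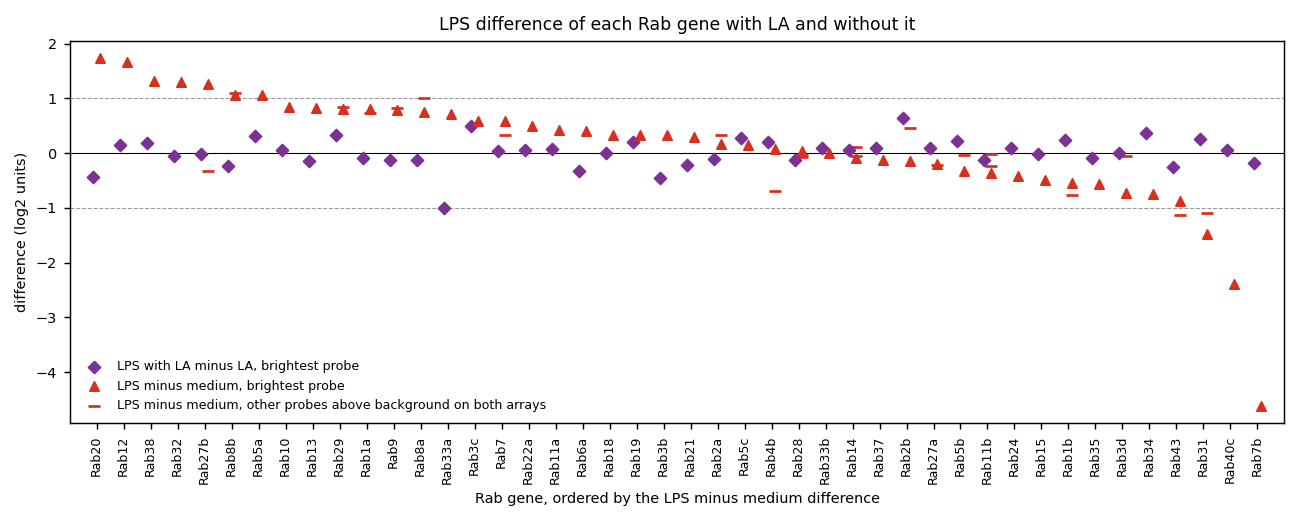
Difference in log2 units of each of the 44 Rab genes measured on all arrays, for LPS with LA minus LA (diamonds) and LPS minus medium (triangles), ordered by the triangles, with dashes for other probes and dashed lines at 2-fold. The triangles run from 1.74 for Rab20 to -4.62 for Rab7b, while all diamonds but that of Rab33a at -1.01 lie within 2-fold.

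The LA difference behaved otherwise. Between LA minus medium and LPS with LA minus LPS, which share no array, r was 0.39 over the 44 Rab genes (rho 0.45), with the same sign in 29 (65.9%). Over all genes r was 0.50 and 67.3% had the same sign, close to the Rab values. The size was larger with LPS present, with a median of 0.77 against 0.23 for the Rab genes and 0.49 against 0.29 over all genes. Rab15 differed by 1.68 with LPS and by 1.20 without, and Rab3d had 1.51 and 0.78.

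Subtracting the LA difference found without LPS from that found with LPS, 4 Rab genes were at least 2-fold above 0 and 7 at least 2-fold below out of 44. Over all genes 8.97% were above and 9.70% below, 18.7% either way. Above were Rab7b at 4.44, Rab40c at 2.44, Rab31 at 1.73 and Rab34 at 1.11. Below were Rab20 at -2.17, Rab33a at -1.72, Rab12 at -1.52, Rab32 at -1.35, Rab8b at -1.31, Rab27b at -1.28 and Rab38 at -1.13. The Rab7b value was also the highest of all 13368 genes. It rests on a dim LPS reading of 1 probe, at -3.15 with a software error of 19%, where the weakest detected level of that array was -3.495. The other probe of Rab7b, not well above background with LPS, had LA differences of 0.88 with LPS and -0.26 without. In the authors' deposited table there were 6 genes above and 6 below, beside 15.1% and 6.33% of all genes. Under 1 other setting each, Rab20 came to -0.72, Rab33a to -0.63, Rab12 to -0.81, Rab8b to -0.92 and Rab34 to 0.16. Rab38 lay at -0.94 to -0.68 under 3 settings. The Rab27b value was under 2-fold in 2 settings and changed sign when its probes were averaged.

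**Figure D4:**
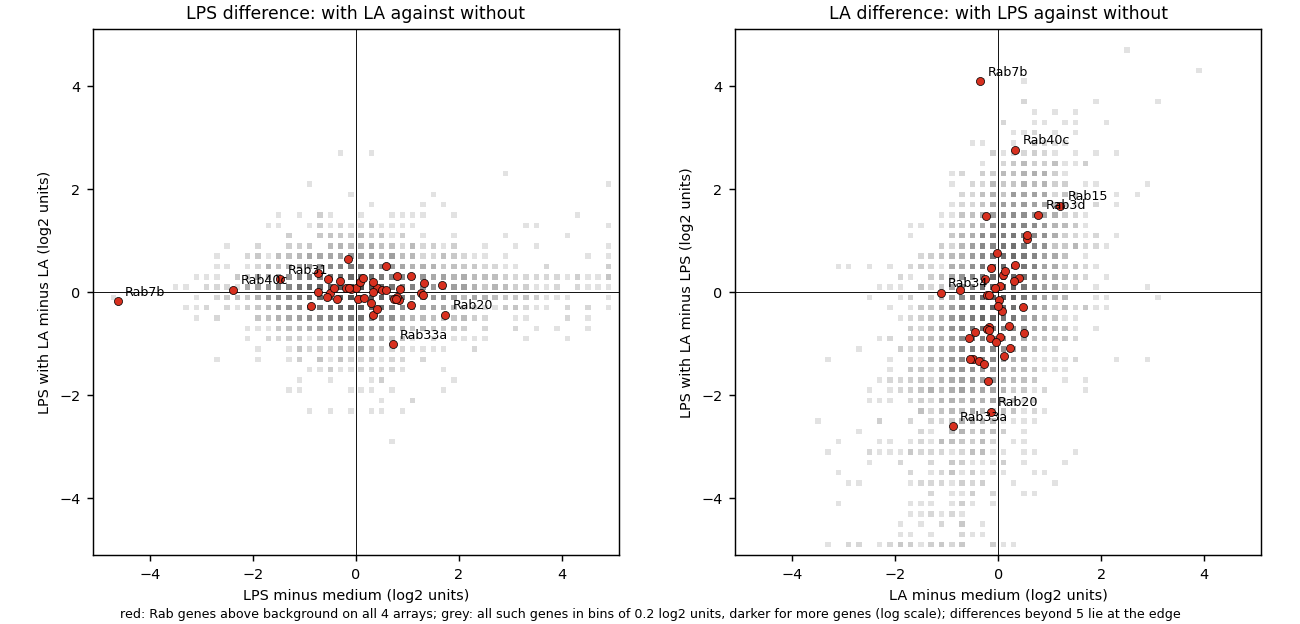
Differences in log2 units of the 44 Rab genes measured on all arrays (red) over all such genes (grey bins of 0.2 units, darker for more genes). The left panel sets LPS with LA minus LA against LPS minus medium, and the right panel sets LPS with LA minus LPS against LA minus medium. On the left the Rab genes lie along the horizontal axis (r -0.075), and on the right they spread vertically (r 0.39).

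Against medium, the combination of LPS and LA left few differences, both in the family and over all genes. Of 47 measured Rab genes, 1 was at least 2-fold higher (Rab15, by 1.18) and 1 at least 2-fold lower (Rab33a, by 1.89), 4.26% either way. Over all 14519 genes 3.98% were at least 2-fold lower and 6.98% apart either way, and the medians were -0.011 for the Rab genes and 0.014 for all. Rab9b was at least 2.25-fold higher by its bound, Rab3a was 0.96 higher and Rab34 0.75 lower. Of the 10 genes named for LPS, Rab20 was at -0.58, Rab7b at -0.52, Rab5a at -0.23, Rab38 at -0.082, Rab12 at -0.051 and Rab8b at -0.012 relative to medium. The others were Rab27b at 0.48, Rab40c at 0.38, Rab32 at 0.059 and Rab31 at 0.017. By brightest probes, the 7 secretory granule Rabs were above medium, with a median of 0.48, beside 51.3% of all genes above 0, in a comparison that shares the medium array with that of LA. The other probes of Rab27b and Rab3a read -0.60 and -0.43. Markers of mast cells, basophils and eosinophils had a median of 0.61 here and a summed signal of 108.3 against 53.3, and those of neutrophils and precursors 0.90 and 765 against 589.9. Those of dendritic cells had a median of -0.50 (1 of 12 at least 2-fold higher, 4 lower) and those of macrophages and monocytes -0.54 (0 of 9 higher, 2 lower). The part of cell composition was not tested here.

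The Rab genes not named so far varied less. By their brightest probes, several stayed within 2-fold over the 4 arrays. These were Rab5c, Rab21 and Rab22a of early endosomes, Rab4b and Rab14 of recycling routes, Rab9 and Rab24 of late endosomes and autophagy, and Rab2a, Rab6a, Rab18, Rab19 and Rab33b of the endoplasmic reticulum and Golgi, along with Rab28. The narrowest range was that of Rab33b, 0.12, followed by Rab28 with 0.15 and Rab14 with 0.21. The widest among these were Rab9 with 0.96, Rab18 with 0.89 and Rab6a with 0.88, each highest on the LPS array. Other probes of Rab9 and Rab4b, well above background on every array, spanned more than 2-fold. That of Rab9 was at 0.11 with LPS and LA, 1.67 with LPS, 0.19 with LA and 0.84 in medium. That of Rab4b was at 0.55 with LPS and LA, -0.16 with LPS, 1.01 with LA and 0.54 in medium. Rab29, which recruits the kinase Lrrk2 to membranes, had a range of 1.03, at 0.31 with LPS and LA, 1.02 with LPS, -0.010 with LA and 0.22 in medium. The brightest probe of Rab6b was well above background only with LPS and LA, at -3.65, and its other probe only with LA, at -3.43. The brightest probe of Rab42 was so only with LA, at -3.72, and in medium, at -3.63.

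The proteins that load, switch and read Rabs were looked at as 4 lists of 140 genes, of which 135 were well above background on at least 1 array. Their differences are those of brightest probes in the main scaling, and values from other probes or settings are not given. With LPS against medium, 12 of 124 measured were at least 2-fold higher (9.68%) and 15 at least 2-fold lower (12.1%), against 8.14% and 7.50% of all genes, with a median of -0.15. Among exchange factors 4 of 33 were higher, including Rab3ip (Rabin8, which activates Rab8) by 2.35, Rabgef1 (Rabex-5, which activates Rab5) by 1.87 and Dennd3 (which activates Rab12) by 1.58, and Rgp1, of the exchange complex for Rab6, was lower at -1.22.

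Effectors and other regulators differed both ways. Of 52 effectors 6 were higher and 9 lower with LPS, with Rab11fip1 2.34, Optn (a Rab8 effector) 1.96 and Fyco1 (a Rab7 effector of microtubule transport) 1.61 higher. Lower were Rab11fip5 at -2.61, Appl2 (a Rab5 effector) at -1.44 and Wdr91 (a Rab7 effector) at -1.37. Of 30 GTPase-activating proteins 2 were higher, Tbc1d1 by 1.37 and Tbc1d13 by 1.27, and 3 lower, Evi5 and Tbc1d22a at -1.32 each and Tbc1d20 at -1.29. Of the 9 delivery and prenylation genes, Rabggta, the alpha subunit of the enzyme that attaches the lipid anchor to Rabs, was at -1.79 and Rabif at -1.30.

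For LPS with LA against LPS, which shares the LPS array, 21 of 124 regulators were at least 2-fold higher (16.9%) and 19 lower (15.3%), against 11.5% and 12.5% of all genes. Rab3ip was lower at -3.42, Rabgef1 at -1.60, Rab11fip1 at -2.76 and Optn at -1.79, whereas Rab11fip5 was 2.72, Evi5 2.03 and Rabggta 1.68 higher. Other named genes were Rin2, an exchange factor for Rab5, at -1.29, Vps18 and Plekhm1 of late endosome fusion, at 1.98 and 1.83, and Rabggtb, the beta subunit of the same prenylating enzyme, at -1.04. Also higher were Rabif at 1.19, Dennd2d at 1.09, Rgp1 at 1.07, Tbc1d2 at 1.91 and Tbc1d22a at 1.78. Also lower were Evi5l at -1.64, Tbc1d1 at -1.41, Tbc1d8 at -1.33 and Sytl4 at -1.53. The regulators of Rabs thus held genes on both sides, as the Rab genes did.

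With LA against medium only 3 regulators were at least 2-fold higher and 3 lower out of 130 (2.31% each), against 3.12% and 3.33% of all genes. Higher were the exchange factors Mon1b (for Rab7) by 1.30, Rab3il1 by 1.13 and Hps1 (for Rab32 and Rab38) by 1.08. Lower were Evi5l at -2.34, Sytl4, a Rab27 effector, at -1.55, and Appl2 at -1.53. Sytl4 was dim with LA, at -3.82, where the weakest detected level of that array was -4.056. For LPS with LA against LA, 1 of 130 was at least 2-fold higher and 1 lower.

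**Figure D5:**
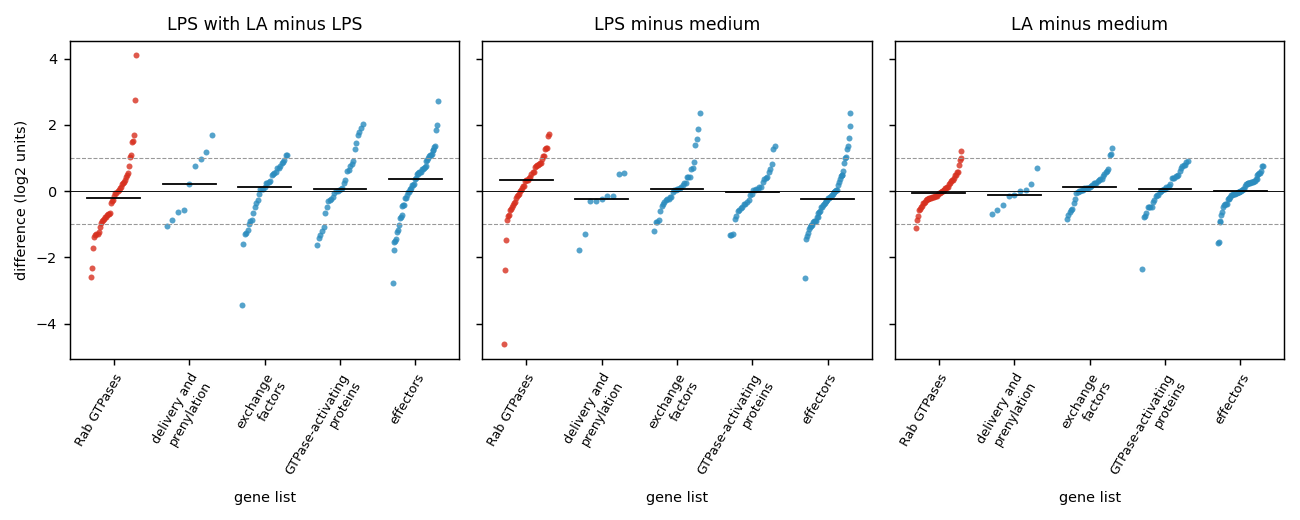
Difference in log2 units of the Rab genes (red) and of the 4 lists of genes that deliver, activate, inactivate or read them (blue), for LPS with LA minus LPS, LPS minus medium and LA minus medium, each point 1 measured gene, black bars the medians and dashed lines 2-fold. The Rab median is -0.21, 0.32 and -0.060 in the 3 panels, and Rab genes and regulators spread to both sides of 0 in each.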

How the data were processed

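Total RNA of 4 cultures was labelled with Cy3 and hybridised to 1 single-colour Agilent array each. Per the file headers, each deposited intensity is a linear, background-subtracted processed signal from Feature Extraction 12.0.3.1. Version 11.5.1.1 is the one in the submitters' processing notes. A value table deposited by the authors holds intensities of 31529 spots, all well above background on every array. It equals the processed signal times 9.30 (LPS with LA), 5.82 (LPS), 8.38 (LA) and 6.67 (medium), with column medians of 1189, 873, 1164 and 1038. Its scale is linear and not centred, and its direction is that of the signal.

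Control spots were left out (leaving 59305 of 62976), and 0 were saturated. The 75th percentiles of the remaining spots were 145.7, 173.8, 158.1 and 178.7 for LPS with LA, LPS, LA and medium. Signals were divided by them and log2 was taken. Spots of a probe were then averaged without those marked as outliers (129 to 154 per array). Of 56605 probes, 33767 matched 1 symbol by transcript accession in a RefSeq table of GRCm38.p6 and 22838 matched none. The array headers name mm9, and no array coordinate was used. A gene is its brightest probe by the mean over arrays, and counts as measured in a comparison where both arrays detect that probe well above background.

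The 5 comparisons and the difference of LA differences were described with a 2-fold rule and no test, since there was 1 array per group. Named Rab genes were those at least 2-fold apart (by a bound where dim) in a pairwise comparison, the 2 highest and lowest of each, and Rab1a, Rab5a, Rab7, Rab11a and Rab27a. Regulators named were at most the 3 largest each way per list and comparison. The members, lists and rules were chosen with earlier results of these data known.

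The alternatives were normexp background correction (offset 50, limma 3.58.1 in R 4.3.3, on the median spot signal), quantile normalization, median scaling, a stricter 75th percentile taken from probes detected on every array, the authors' table, 2 filters on dim probes and the mean of all probes. The rest was done in Python 3.11.15 (pandas 2.3.3, numpy 2.4.6, matplotlib 3.10.9) and was tested on simulated data. The value of 1 marker gene is not reported here.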

Additional observations from a re-analysis of the deposited data

Results flagged for a closer look

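Rab33a was picked out because its difference between LPS with LA and LA, -1.01, ran opposite to its difference between LPS and medium, 0.71, each being at least 1.5-fold. The difference between them was -1.72. With 1 array per group this difference was not tested, and Rab33a has a single probe. Its signal was dim, with a software error of 17.9% with LPS and LA, 10.7% with LPS, 12.4% with LA and 10.98% in medium.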

How the results depend on the processing

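Over 8 alternatives, 286 of 342 differences of named Rab genes stayed on the same side of 2-fold, 54 became smaller than 2-fold and 2 reversed: Rab3a for LA against medium (-0.18) and Rab27b for the difference of LA differences (0.14), both with the mean of all probes. Of 43 such differences 15 were at least 2-fold the same way in every setting with a value. Counts under normexp background correction follow, with the share of all genes in brackets. It left 2 Rab genes higher with LPS than in medium (5.02%), and 0 higher and 0 lower with LA (0.50% and 1.13%). With LPS and LA, 4 were lower than with LPS (8.09%) and 0 lower than with LA (0.15%). Against medium, that array had 0 higher and 0 lower (0.56% and 1.49%). For the difference of LA differences 3 were below 0 by at least 2-fold (5.40%). For LA against medium the higher count was 1 with quantile normalization (3.01% of all genes), median scaling (2.62%) and the authors' table (4.24%). It was also 1 with only genes above background on all arrays (2.49%). It was 3 with the stricter 75th percentile and 3 without a filter, beside 3.90% and 7.94% of all genes. The lower count for LA against medium was 0 with the authors' table (2.23%). For LPS with LA against LA the lower count was 0 with quantile normalization (1.47%) and median scaling (1.42%). It was also 0 with the stricter 75th percentile (1.44%) and the authors' table (0.90%), and 2 without a filter (5.84%). For LPS with LA against medium the higher count was 2 with the stricter 75th percentile (3.96%) and 2 without a filter (6.78%). The lower count there was 2 without a filter (6.755%) and 2 with the mean of probes (3.94%). For LPS with LA against LPS, 3 were lower with the authors' table (6.905%) and the median was 0.21. The authors' table gave a median of 0.073 for LPS against medium, where it moves the median of all genes to -0.24. The causes were not tested. No paired analysis was possible because each group has 1 array, and for the same reason no array could be left out. Dim probes vary most, since their spots differed by an SD of 0.397 to 0.499 log2 units on an array, and culture, animal and array variation were not measured.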
